A study of Mus musculus with 12 samples.

Results

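The genes described here are 35 genes of the p53 pathway and the DNA damage response. They were taken from a list of 38 gene symbols, of which a symbol was kept when it had a row with a mean of at least 1 FPKM over the 12 libraries. Of the other symbols, *Eda2r* and *Perp* were below that level and *Ephx1* was not analysed here. The 35 genes are part of 13169 symbols that passed the same minimum, of 25263 symbols in all. FPKM is a read count scaled to the length of the transcript and to the library, so levels of different genes can be set side by side. The question put to them was whether infection with a Cre virus, whose recombinase can cut DNA at sites that resemble loxP, goes with a DNA damage response in either leukemia.

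RNA was sequenced from leukemic cells of adult mouse bone marrow that carry MLL-AF9 (MA9), a fusion of the histone methyltransferase MLL with AF9 that drives acute leukemia. All 12 libraries come from such cells, kept overnight in RPMI medium with 10% FCS and the cytokines SCF, GM-CSF, IL-6 and IL-3. The WT-GFP group (3 libraries) is MA9-Hoxa-wild type, strain C57BL/6, infected with the control retrovirus. The WT-Cre group (3 libraries) is the same genotype and strain infected with the Cre retrovirus. The Hoxa-flox group (3 libraries) has a floxed Hoxa cluster, strain C57BL/6J, with the control virus. The Hoxa-del group (3 libraries) is labelled as Hoxa cluster deleted, strain C57BL/6J, after the Cre virus. After infection all cells were sorted for high GFP. Genotype, strain and leukemia differ together between the WT and the floxed cells and cannot be told apart. The labels do not say whether replicates are separate cultures, clones or mice, so every p below measures the spread between these libraries only.

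p53, encoded by *Trp53*, is a transcription factor that is held at a low level by the ubiquitin ligase Mdm2 and its partner Mdm4. After DNA damage the kinases Atm and Chk2 modify p53 and Mdm2, p53 accumulates, and it binds response elements made of paired half-sites near its target genes. Its targets stop the cell cycle (*Cdkn1a*, which encodes p21), favour cell death (*Fas*, *Bax*), repair DNA (*Xpc*) and shut the response off again (*Mdm2*, *Ppm1d*). Most of the activation of p53 happens on the protein, so the level of *Trp53* RNA need not follow it, and the RNA of its targets is the usual readout. In leukemias with MLL fusions p53 is often not mutated, and its targets can respond to damaging drugs.

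The promoters of the targets show what p53 is known to read. RefSeq promoters of GRCm38.p6, 250 bases before to 50 after a start site, were matched by symbol for 27 of the 35 genes, which gave 41 promoters. They were searched for the p53 response element, a pair of p53 half-sites of 10 bases each without a spacer. The C and the G of each half-site had to match and up to 3 other bases could differ. The consensus reads the same on both strands, so one search covers both. Such a match was found in 6 promoters of 5 genes (14.6% of promoters) against 1.38% of all 32851 promoters. A perfect half-site was found in 10 genes (26.8% of promoters, against 8.36% of all promoters). The 4 promoters printed below carry the best match of each of the 2 growth arrest genes *Cdkn1a* and *Ccng1*, with 1 mismatch, and matches with 3 mismatches in *Aen* and *Sesn1*. *Trp53* itself also had a match with 3 mismatches, at chr11:69580284-69580303. Capitals mark the matched 20 bases, and each sequence is on the strand of its gene. *Cdkn1a* lies at chr17:29090729-29091028 (+), *Ccng1* at chr11:40755237-40755536 (-), *Aen* at chr7:78895808-78896107 (+) and *Sesn1* at chr10:41887189-41887488 (+). A match is a description of the letters and not a measured binding site.
*Cdkn1a*: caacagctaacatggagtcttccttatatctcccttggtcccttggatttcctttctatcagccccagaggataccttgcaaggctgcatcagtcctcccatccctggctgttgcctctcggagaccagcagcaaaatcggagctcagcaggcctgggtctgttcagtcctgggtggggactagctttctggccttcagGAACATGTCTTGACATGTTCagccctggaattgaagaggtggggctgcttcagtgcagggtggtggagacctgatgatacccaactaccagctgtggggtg
*Ccng1*: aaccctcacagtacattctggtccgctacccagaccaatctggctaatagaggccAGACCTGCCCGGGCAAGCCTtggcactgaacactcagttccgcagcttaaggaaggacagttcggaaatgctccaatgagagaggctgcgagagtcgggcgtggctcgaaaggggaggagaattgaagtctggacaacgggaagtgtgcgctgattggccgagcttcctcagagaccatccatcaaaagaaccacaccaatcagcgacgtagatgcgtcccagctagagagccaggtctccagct
*Aen*: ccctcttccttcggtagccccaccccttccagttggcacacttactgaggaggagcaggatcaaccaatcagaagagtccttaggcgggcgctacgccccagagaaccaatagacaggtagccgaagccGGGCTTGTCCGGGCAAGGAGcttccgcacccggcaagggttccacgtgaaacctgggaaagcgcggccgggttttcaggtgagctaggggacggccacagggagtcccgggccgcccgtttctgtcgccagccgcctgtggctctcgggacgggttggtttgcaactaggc
*Sesn1*: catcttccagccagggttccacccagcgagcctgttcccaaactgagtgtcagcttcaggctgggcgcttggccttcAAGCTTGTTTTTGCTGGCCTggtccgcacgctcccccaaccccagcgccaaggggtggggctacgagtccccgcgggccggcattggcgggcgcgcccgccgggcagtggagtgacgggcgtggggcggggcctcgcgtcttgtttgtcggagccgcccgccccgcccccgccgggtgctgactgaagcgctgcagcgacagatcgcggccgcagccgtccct
In the printed *Cdkn1a* promoter the match ends 31 bases before the start site of that promoter, and in *Ccng1* it ends 175 bases before it. Genes can have several start sites, so these distances hold for the printed promoters only. Neither gene passed the test with Cre in either leukemia, and whether a match goes with the level of a gene was not tested.

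Across the series, the summed level of 8 Hoxa genes was set beside the labels: it was 292.1 to 322 FPKM in WT-GFP, 293.9 to 317 in WT-Cre, 505 to 528 in Hoxa-flox, and 170 (replicate 1), 289 (replicate 2) and 239 (replicate 3) in Hoxa-del. Hoxa RNA was thus lower in Hoxa-del than in Hoxa-flox but not absent, and replicate 2 lay just under the WT range. Whether the cluster was deleted in all cells of Hoxa-del was not tested. Relative depth, read from the steps of low values, ran from 0.313 (WT-Cre replicate 2) to 1.48 (WT-GFP replicate 3) of WT-GFP replicate 1, and the values hold no counts. Markers of myeloid leukemic cells were measured for 10 of 10 genes, with sums of 3607 to 4264 FPKM in WT-GFP, 2977 to 3230 in WT-Cre, 1654 to 2359 in Hoxa-flox and 1648 to 2831 in Hoxa-del. Single markers went both ways, by -4.96 to 4.52 (log2) in Hoxa-flox against WT-GFP. There 2 passed higher and 4 lower (limma), against 13.3% and 13.5% of all symbols. With Cre in floxed cells they changed by -0.42 to 3.12, with 0 past the test. Of 6 T cell markers 4 had a row, with sums of 0.359 to 0.655 FPKM in WT and 3.34 to 8.67 in floxed libraries. Nearly all of that was *Lck*, which was higher in floxed cells (2.45 with the control virus and 2.05 with Cre, limma, adjusted p = 3.18e-05 and 0.000129), while *Cd3e* was at 0 in 11 of 12 libraries. In WT libraries the summed T cell markers were under 1 FPKM, so *Lck* passed the minimum through the floxed libraries only. The part of T cell RNA in the differences between the leukemias was not tested. B cell sums were 0.648 to 2.73 FPKM (4 of 6 markers), erythroid sums 0.521 to 5.64 (5 of 6) and stromal and endothelial sums 11.9 to 48.5 (6 of 6, mostly *Pecam1*). In bulk RNA, fewer cells of a type and less RNA per cell cannot be told apart. The 6 floxed libraries formed 2 sets on their first principal component, which held 64.0% of the variance and was computed without the 35 genes and without the lists used below. The first set held Hoxa-flox replicates 1 and 2 and Hoxa-del replicate 2, and the second Hoxa-flox replicate 3 and Hoxa-del replicates 1 and 3. Nothing in the labels names these sets. Replicates of the 35 genes were close in WT cells, with a median highest over lowest level of 1.14 in WT-GFP and 1.15 in WT-Cre, and wider in floxed cells, at 1.58 in Hoxa-flox and 1.90 in Hoxa-del.

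With the Cre virus in WT cells, none of the 35 genes passed the test (limma, adjusted p of 1 for each of them), where 0.0152% of all tested symbols did. At an unadjusted p under 0.05 there was 1 gene, *Fas*, against 2.37% of all symbols. The median change of the 35 genes was -0.05 on the scale of log2(FPKM + 1), and that of all tested symbols was -0.03. The changes ran from -0.42 (*Tnfrsf10b*) to 0.42 (*Pvt1*), and 21 of 35 were negative. In 5 genes every WT-Cre library lay above every WT-GFP library (*Fas*, *Mdm4*, *Plk2*, *Sesn1* and *Ercc5*), against 9.31% of all symbols. In 10 genes every WT-Cre library lay below, against 16.3% of all symbols (*Trp53*, *Ppm1d*, *Cdkn1a*, *Btg2*, *Gadd45a*, *Gadd45b*, *Psrc1*, *Tnfrsf10b*, *Aen* and *Slc19a2*).

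*Trp53* measured 41.6, 37.8 and 40.1 FPKM in WT-GFP and 36.5, 35.9 and 29.5 in WT-Cre, a log2 change of -0.23 ± 0.15 (SE). Its levels with Cre lay just under those with the control virus. *Mdm2*, which is both the main inhibitor of p53 and its target, measured 55.0, 63.3 and 65.9 FPKM without and 63.0, 62.8 and 73.7 with Cre. The groups overlapped, and the change was 0.11 with a 95% interval of -0.48 to 0.70. *Mdm4*, the relative of Mdm2 that blocks p53, measured 38.7, 53.8 and 53.3 FPKM in WT-GFP and 58.5, 58.3 and 64.1 in WT-Cre. The 3 Cre libraries were the highest, at a change of 0.32 ± 0.26 (SE). *Ppm1d* encodes the phosphatase Wip1, a p53 target that removes damage-induced phosphates. It was at 7.73, 7.39 and 7.41 FPKM without and 6.51, 5.45 and 6.29 with Cre, so that the Cre libraries were lower, by -0.27 ± 0.13 (SE). *Cdkn2a*, whose row can hold both p16Ink4a and p19Arf, the Mdm2 inhibitor, overlapped between 4.96 and 7.01 FPKM without and 4.70 and 5.74 with Cre. *Atm*, the kinase at the head of the pathway, was at 4.33, 5.39 and 4.84 FPKM without and 6.23, 5.31 and 5.27 with Cre, and its groups overlapped. *Trp53inp1*, a target that helps p53 to favour cell death, overlapped as well (18.4 to 22.3 FPKM against 22.0 to 23.6).

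Among the growth arrest genes, *Cdkn1a* is the classical readout of p53. It measured 105, 89.6 and 93.4 FPKM in WT-GFP and 75.02, 72.8 and 80.8 in WT-Cre. Every Cre library was below every control library, and the change of -0.33 had a 95% interval of -0.77 to 0.12, which leaves out a rise above 0.12. *Ccng1*, the cyclin G1 gene with the promoter match printed above, measured 82.2, 86.1 and 85.8 FPKM without and 87.3, 81.3 and 85.9 with Cre. The 6 values lay close together, but the fit, which pools the spread of all 4 groups, gave the change of 0.00 a 95% interval of -1.01 to 1.01. *Btg2*, an antiproliferative gene, was at 24.4, 23.6 and 23.8 FPKM without and 23.2, 21.7 and 22.1 with Cre. *Gadd45a*, a stress sensor that binds p21 and PCNA, was at 25.3, 24.0 and 24.2 FPKM without and 22.2, 23.5 and 22.6 with Cre. Both genes were slightly lower in all 3 Cre libraries, by -0.09 ± 0.40 (SE) and -0.10 ± 0.17 (SE). *Plk2*, a polo-like kinase, was at 8.77, 9.48 and 9.29 FPKM without and 10.8, 10.3 and 10.7 with Cre, with no overlap and a change of 0.19 ± 0.17 (SE). The other 6 growth arrest genes had changes of -0.31 (*Psrc1*) to -0.01 (*Plk3*), and in 4 of them the groups overlapped.

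Among the genes of cell death, *Fas*, at chr19:34290666-34327772 on the plus strand (GENCODE M21, GRCm38), encodes the death receptor CD95. It measured 4.62, 4.07 and 4.91 FPKM in WT-GFP and 6.10, 6.19 and 6.75 in WT-Cre. All 3 Cre libraries were higher, at a change of 0.41 (95% interval 0.10 to 0.72), which did not pass over all genes (limma, adjusted p = 1). The other death receptor, *Tnfrsf10b* (DR5), lay the other way, at 2.28, 2.42 and 2.35 FPKM without and 1.21, 1.48 and 1.83 with Cre, a change of -0.42 (95% interval -0.88 to 0.03). *Aen*, an apoptosis-enhancing nuclease, was at 24.1, 20.9 and 21.7 FPKM without and 20.2, 20.2 and 19.96 with Cre. *Phlda3*, an inhibitor of Akt, was at 15.5, 13.5 and 13.9 FPKM without and 11.9, 13.8 and 10.9 with Cre. The changes were -0.14 ± 0.23 and -0.22 ± 0.36 (SE), with errors that pool all 4 groups. The WT groups of *Aen* did not overlap, and those of *Phlda3* did. The autophagy gene *Dram1* was nearly level, at 20.5 to 21.0 FPKM without and 20.6 to 21.6 with Cre, as was *Ei24* (29.6 to 30.0 FPKM against 26.4 to 30.8).

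The 5 repair genes had a median absolute change of 0.09 in WT cells, where that of all symbols was 0.13. *Xpc*, which recognises bulky lesions for nucleotide excision repair, measured 42.8, 37.5 and 41.3 FPKM in WT-GFP and 38.2, 40.0 and 40.5 in WT-Cre, a change of -0.03 ± 0.22 (SE). *Ddb2*, the damage sensor of the same pathway, was low, at 2.18, 1.53 and 2.68 FPKM without and 2.25, 3.77 and 2.196 with Cre, and the groups overlapped. *Ercc5*, the nuclease of that pathway, was at 5.91 to 6.33 FPKM without and 6.73 to 7.50 with Cre, with no overlap. *Polk*, a translesion polymerase, and *Rrm2b*, the p53-induced subunit of ribonucleotide reductase, overlapped, with changes of -0.01 and 0.09. *Gdf15*, a secreted stress cytokine and p53 target, measured 7.90, 6.95 and 5.84 FPKM without and 5.35, 6.01 and 6.14 with Cre. *Sesn1*, an antioxidant inhibitor of mTORC1, measured 5.49, 5.80 and 5.21 FPKM without and 6.15, 5.92 and 5.89 with Cre. The first overlapped (-0.20 ± 0.18, SE) and the second did not (0.10 ± 0.11, SE).

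**Figure D1:**
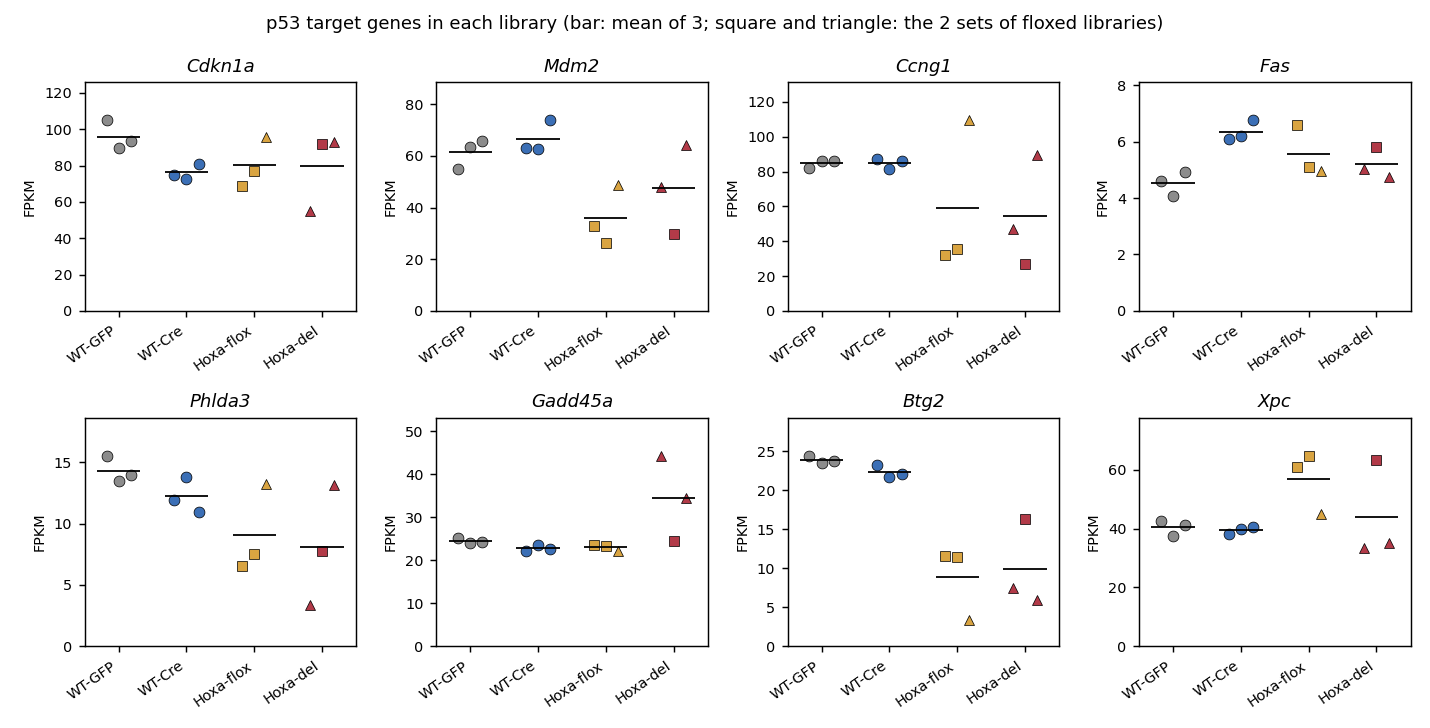
Level of 8 p53 target genes in FPKM (vertical axes, from 0) in each of the 12 libraries of the 4 groups; points are libraries, bars are the mean of 3, and in the floxed groups squares are the first and triangles the second set of libraries. WT libraries lie close together (*Ccng1* 81.3 to 87.3 FPKM), floxed libraries spread (*Ccng1* 27.0 to 109 FPKM) with their set, and *Gadd45a* has a high pair in Hoxa-del.

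With the Cre virus in floxed cells, none of the 35 genes passed the test either (limma, lowest adjusted p = 0.729), where 0.0304% of all tested symbols did. At an unadjusted p under 0.05 there were 2 genes, *Gadd45a* (higher) and *Cdkn2a* (lower), against 6.27% of all symbols. The median change was -0.04 on the log2 scale, and that of all symbols -0.06. In 1 gene, *Gadd45a*, every Hoxa-del library lay above every Hoxa-flox library, against 2.25% of all symbols, and in none did they all lie below, against 4.14%.

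*Gadd45a*, at chr6:67035096-67037457 on the minus strand (GENCODE M21, GRCm38), measured 23.5, 23.2 and 22.2 FPKM in Hoxa-flox and 44.2, 24.5 and 34.4 in Hoxa-del. The change was 0.52, with a 95% interval of 0.14 to 0.90, and an adjusted p of 0.729 (limma). Hoxa-del replicate 1, with the highest *Gadd45a*, also had the lowest Hoxa sum (170 FPKM). Replicate 2, with the lowest *Gadd45a* of the group, had the highest Hoxa sum (289 FPKM) and belongs to the first set. Whether either goes with the other was not tested. In the first set alone the change of *Gadd45a* was 0.07, and in the second set it was 0.78. Its paralog *Gadd45b*, also a stress gene, overlapped, with 22.7, 21.6 and 12.7 FPKM in Hoxa-flox and 13.6, 24.3 and 17.3 in Hoxa-del.

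Among p53 and its regulators, *Trp53* was at 49.3, 45.6 and 59.2 FPKM in Hoxa-flox and 42.1, 58.3 and 50.1 in Hoxa-del, a change of -0.04 with a 95% interval of -0.37 to 0.30. *Mdm2* was at 32.9, 26.3 and 48.7 FPKM without and 48.1, 29.9 and 64.2 with Cre. The low values were the 3 libraries of the first set, and within the sets the changes of *Mdm2* were 0.02 and 0.19. *Mdm4* was at 22.8, 25.3 and 23.3 FPKM without and 49.5, 19.9 and 33.2 with Cre, so that 1 of the 3 Cre libraries was below all controls. *Cdkn2a* was at 9.96, 9.74 and 7.72 FPKM without and 4.78, 9.07 and 4.95 with Cre, a change of -0.52 ± 0.22 (SE). It was lower in both Hoxa-del libraries of the second set, and Hoxa-del replicate 2 lay within the range of the controls. *Atm* was at 3.31, 2.94 and 8.26 FPKM without and 10.5, 4.39 and 8.52 with Cre, and its change of 0.64 had a 95% interval of -0.09 to 1.37. *Trp53inp1* and *Ppm1d* overlapped (0.26 ± 0.29 and -0.08 ± 0.13, SE).

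*Cdkn1a* was at 68.9, 77.2 and 95.7 FPKM in Hoxa-flox and 54.9, 91.9 and 93.2 in Hoxa-del. The groups overlapped, with a change of -0.04 and a 95% interval of -0.48 to 0.41. *Ccng1* was at 31.9, 35.4 and 109 FPKM without and 46.7, 27.0 and 89.5 with Cre. Its range of 4.05-fold over the 6 libraries followed the sets, since the 3 values of the first set were the lowest, and its interval ran from -1.05 to 0.97. *Btg2* ran the other way over the sets, with 11.6, 11.5 and 3.41 FPKM without and 7.41, 16.3 and 5.95 with Cre. *Zmat3*, a zinc finger RNA-binding target of p53, was at 3.19, 2.81 and 7.70 FPKM without and 4.60, 3.74 and 7.65 with Cre, again low in the first set. *Plk2* and *Plk3* overlapped, with changes of -0.14 ± 0.17 and 0.22 ± 0.15 (SE). The changes of *Cd82*, *Ptp4a3* and *Psrc1* were -0.23, -0.28 and -0.09.

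*Fas* was at 6.59, 5.10 and 4.97 FPKM in Hoxa-flox and 5.03, 5.82 and 4.76 in Hoxa-del, a change of -0.07 with a 95% interval of -0.39 to 0.24. *Phlda3* was at 6.55, 7.48 and 13.2 FPKM without and 3.35, 7.78 and 13.1 with Cre, and Hoxa-del replicate 1 had the lowest value of all 12 libraries. *Aen* was at 15.2, 13.5 and 24.2 FPKM without and 20.9, 14.5 and 27.3 with Cre, and its groups overlapped. *Tnfrsf10b*, *Ei24* and *Dram1* overlapped too, with changes of -0.02, -0.16 and -0.15. The lesion sensor *Xpc* was at 61.1, 64.8 and 45.1 FPKM without and 33.3, 63.4 and 35.02 with Cre. Its 3 values of the first set were the highest, and the change was -0.42 with a 95% interval of -0.91 to 0.08. *Ddb2* stayed between 0.989 and 2.07 FPKM without and 1.21 and 2.86 with Cre. *Rrm2b*, *Polk* and *Ercc5* had changes of 0.00, -0.02 and 0.08. *Gdf15* was at 0.291, 0.633 and 0.205 FPKM without and 0.113, 0.514 and 0.252 with Cre, near the lower end of what was measured. *Sesn1* was the steadiest gene of the list over the 6 floxed libraries, at 10.7, 9.74 and 10.7 FPKM without and 10.3, 9.48 and 10.8 with Cre.

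**Figure D2:**
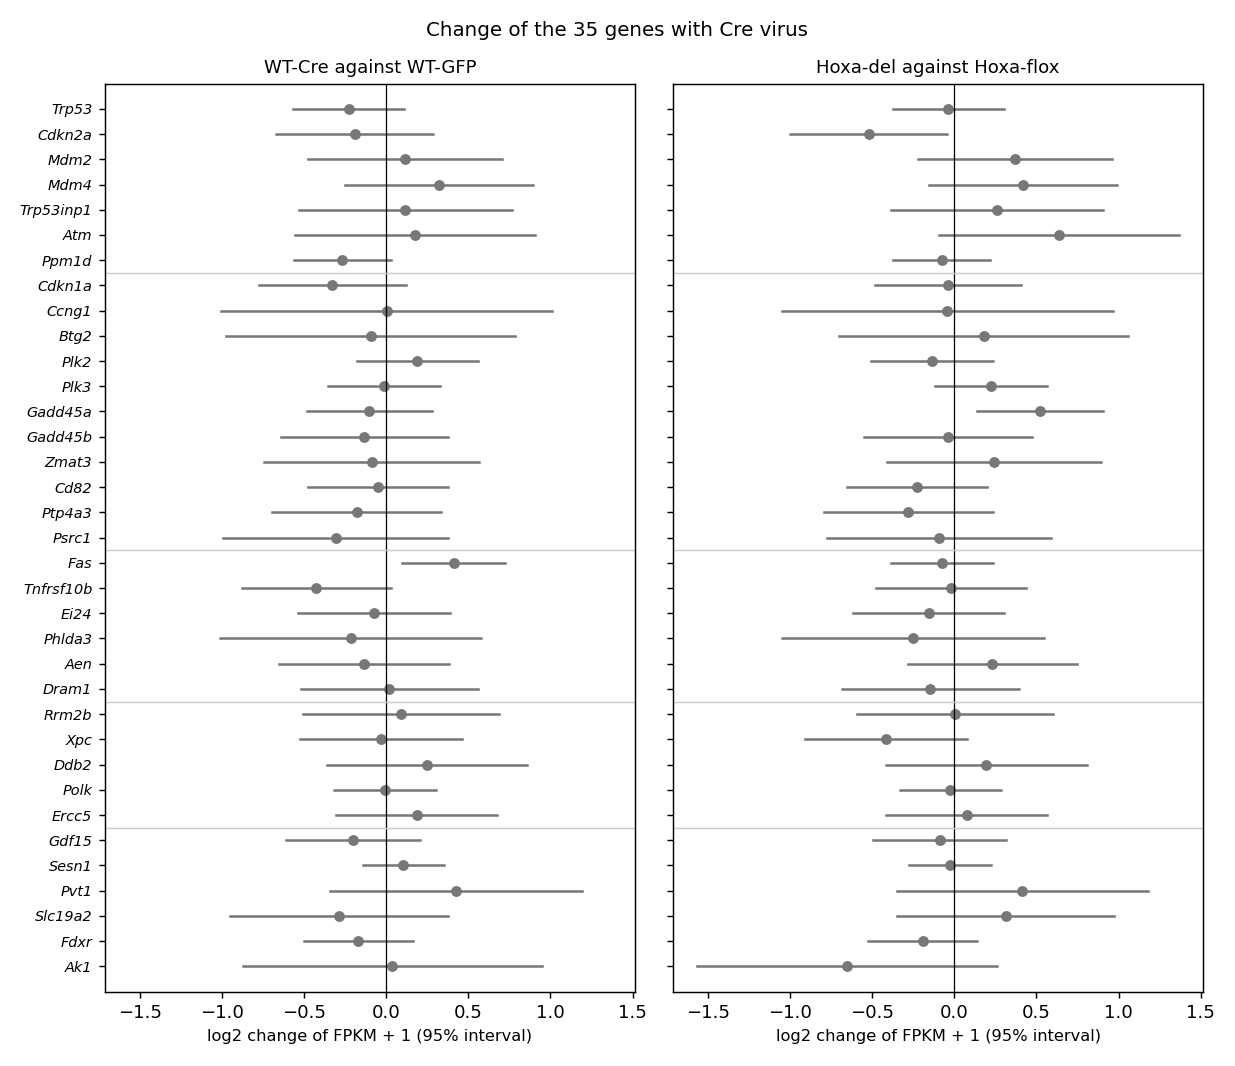
Change with the Cre virus (log2 of FPKM + 1, horizontal axes) of the 35 genes in WT cells (left) and floxed cells (right), ordered by role and separated by grey lines; points are limma estimates from 3 against 3 libraries and bars are 95% intervals without adjustment over genes. All points are grey because none passed the adjusted threshold; the intervals of *Fas* on the left, and of *Gadd45a* and *Cdkn2a* on the right, do not reach 0.

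The 2 sets of floxed libraries, each of which holds both viruses, divided many of the genes. In 9 genes every library of the second set lay above every library of the first (*Mdm2*, *Trp53inp1*, *Ccng1*, *Plk3*, *Zmat3*, *Aen*, *Ercc5*, *Psrc1* and *Atm*), and in 10 genes below (*Cdkn2a*, *Fas*, *Gdf15*, *Btg2*, *Gadd45b*, *Xpc*, *Dram1*, *Cd82*, *Fdxr* and *Ak1*). These are 25.7% and 28.6% of the genes, against 23.1% and 31.7% of all tested symbols, which is near the share of any gene. No test was made, since the sets were read from the data. Cell cycle genes differed with the sets: 25 of 26 were higher in the second set in all libraries, with sums of 400.2 to 480.5 FPKM in the first set and 956 to 1278 in the second. Of 22 interferon response genes 16 were lower in the second set in all libraries, with sums of 700.4 to 806 FPKM in the first set and 212 to 280.4 in the second. The part of either list in the values of the 35 genes was not tested. Within the first set the median change with Cre was 0.02 and within the second -0.11, and 8 genes were higher and 9 lower with Cre in both, near the 20.6% and 26.9% of all symbols. With the set as a term of the fit, again none of the 35 genes passed (limma, lowest adjusted p = 0.133). Hoxa-del replicate 1 was the lowest of the 6 floxed libraries in 11 genes, *Cdkn1a*, *Phlda3*, *Ptp4a3*, *Trp53* and *Ei24* among them, where it was the lowest for 25% of all symbols.

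The calls in floxed cells depended on 1 library. Without Hoxa-del replicate 2, 4 of the 35 genes passed (limma): *Gadd45a* (0.74, adjusted p = 0.0393) and *Mdm4* (0.75, adjusted p = 0.0483) were higher, and *Cdkn2a* (-0.78, adjusted p = 0.0437) and *Xpc* (-0.71, adjusted p = 0.0437) were lower. In that fit 5.98% of all symbols passed, and the control virus libraries of the first set then had no Cre library to be set against. With libraries weighted by how well they fit their group, 17 of the 35 genes passed, where 39.3% of all symbols did. Those weights set Hoxa-flox replicate 3 (0.0967) and Hoxa-del replicate 2 (0.0881) nearly aside, which leaves the first set with the control virus against the second set with Cre.

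The difference between the change with Cre in floxed and in WT cells was tested in the same fit. None of the 35 genes passed (limma, lowest adjusted p = 0.9997), where 0.00759% of all symbols did. At an unadjusted p under 0.05 there were 2, *Gadd45a* (0.62 ± 0.25, SE) and *Fas* (-0.49 ± 0.20, SE), against 2.46% of all symbols. For *Cdkn1a* the difference was 0.29, with a 95% interval of -0.34 to 0.92. For *Mdm2* it was 0.25, with an interval of -0.58 to 1.09. These intervals are too wide to show that the leukemias respond alike.

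**Figure D3:**
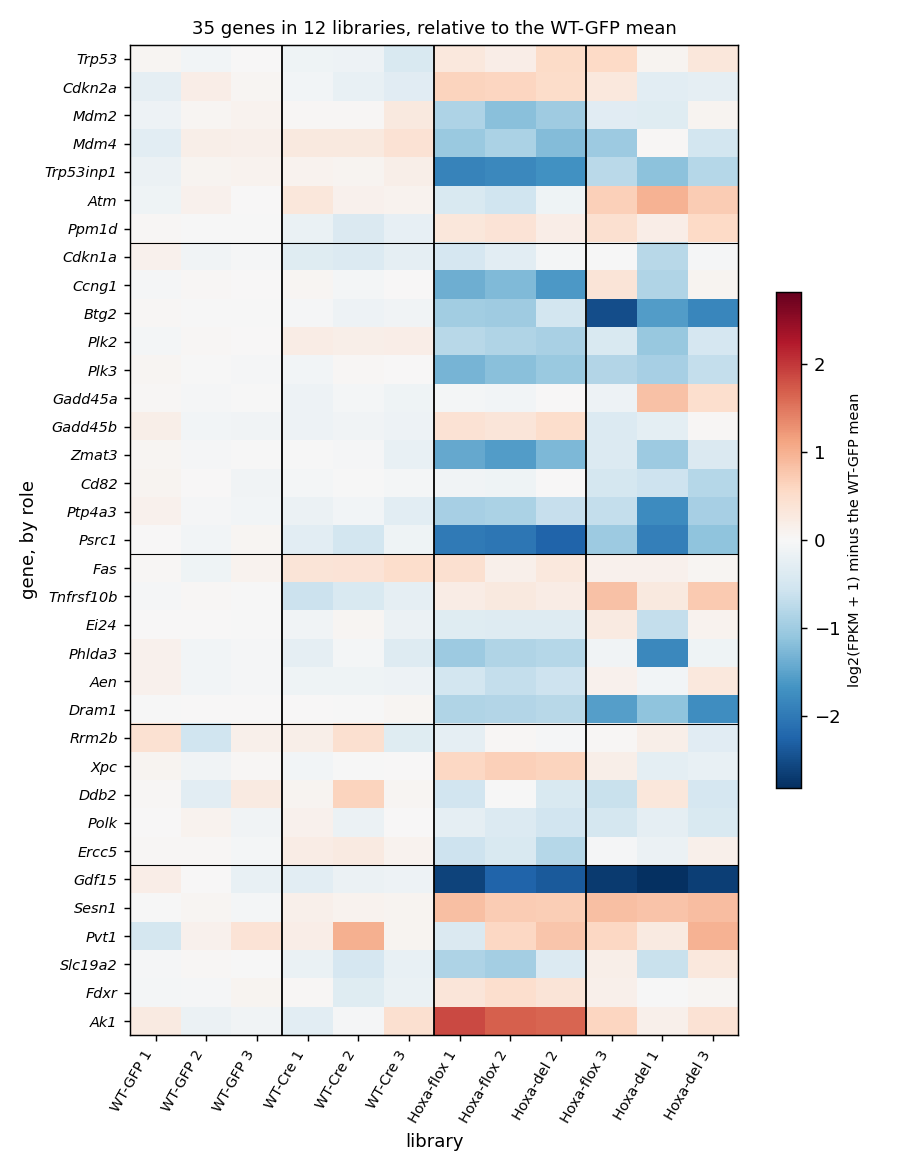
The 35 genes (rows, by role) in the 12 libraries (columns; floxed libraries ordered by set), coloured by log2(FPKM + 1) minus the WT-GFP mean of the gene, red for higher and blue for lower. The WT-Cre columns are pale, with a median between -0.11 and -0.04 in each library, while floxed columns carry blocks, such as *Gdf15* low in all 6 and *Ak1* high in Hoxa-flox replicates 1 and 2 and Hoxa-del replicate 2.

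The larger differences lay between the leukemias. With the control virus, 13 of the 35 genes differed between Hoxa-flox and WT-GFP (limma), where 26.8% of all symbols did. The 11 lower genes were *Mdm2*, *Mdm4*, *Trp53inp1*, *Btg2*, *Plk2*, *Plk3*, *Zmat3*, *Ptp4a3*, *Psrc1*, *Dram1* and *Gdf15*, where 13.5% of all symbols fell. The 2 higher genes were *Sesn1* and *Ak1*, where 13.3% of all symbols rose. With Cre, 14 of the 35 genes differed between Hoxa-del and WT-Cre, where 27.2% of all symbols did. Of these, 9 were lower, against 14.2%, and 5 higher, against 13%. The 9 lower genes were *Mdm4*, *Trp53inp1*, *Btg2*, *Plk2*, *Plk3*, *Ptp4a3*, *Psrc1*, *Dram1* and *Gdf15*. The 5 higher genes were *Trp53*, *Ppm1d*, *Gadd45a*, *Tnfrsf10b* and *Sesn1*. These 2 comparisons share no library, and 10 genes passed in both in the same direction, which is 76.9% of the first list and 71.4% of the second. Over all symbols the same shares were 77.2% and 76.0%, so the overlap of the 35 genes was near that of any gene. The median change of the 35 genes was -0.35 with the control virus and -0.25 with Cre, against 0.00 for all symbols in both.

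*Gdf15*, at chr8:70629393-70632456 on the minus strand (GENCODE M21, GRCm38), had the largest difference of the 35 genes in both comparisons. It measured 5.35 to 7.90 FPKM in the 6 WT libraries and 0.113 to 0.633 in the 6 floxed libraries. Its mean passed the minimum of 1 FPKM through the WT libraries only, so its place on the list and this difference are not independent. The fall was -2.52 ± 0.18 (SE, limma, adjusted p = 2.29e-06) with the control virus and -2.41 ± 0.18 (SE, adjusted p = 3.54e-06) with Cre. *Psrc1*, a spindle gene that p53 regulates, came next, with 20.7 to 31.3 FPKM in WT and 5.46 to 14.4 in floxed libraries. It fell by 1.68 with the control virus (limma, adjusted p = 0.00219) and by 1.47 with Cre (adjusted p = 0.00506). *Trp53inp1* measured 18.4 to 23.6 FPKM in WT and 4.92 to 11.97 in floxed libraries, and fell by 1.48 (limma, adjusted p = 0.00335) and 1.34 (adjusted p = 0.00627). *Plk3*, a stress-induced polo-like kinase, measured 9.63 to 10.6 FPKM in WT and 3.48 to 6.05 in floxed libraries. It fell by 1.10 (limma, adjusted p = 0.000342) and 0.87 (adjusted p = 0.00172). In these 4 genes no floxed library reached the WT range.

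*Dram1* measured 20.5 to 21.6 FPKM in WT and 5.47 to 11.7 in floxed libraries, and *Btg2* 21.7 to 24.4 and 3.41 to 16.3. *Dram1* fell by 1.07 and 1.24 (limma, adjusted p = 0.00755 and 0.00342), and *Btg2* fell by 1.49 and 1.22 (adjusted p = 0.0176 and 0.0433). Both were low throughout the floxed cells and lowest in the second set. *Plk2* fell by 0.68 and 1.01 (limma, adjusted p = 0.0112 and 0.00118), from 8.77 to 10.8 FPKM in WT to 3.87 to 6.54 in floxed libraries. *Ptp4a3*, a phosphatase and p53 target, fell by 0.84 and 0.94 (limma, adjusted p = 0.0209 and 0.0118), from 21.1 to 28.5 FPKM in WT to 7.02 to 16.3 in floxed libraries. *Mdm4* fell by 0.99 and 0.89 (limma, adjusted p = 0.0162 and 0.0265). In *Mdm4* 1 floxed library, Hoxa-del replicate 1 at 49.5 FPKM, lay within the range of WT-GFP (38.7 to 53.8 FPKM).

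*Sesn1* stood higher in all 6 floxed libraries (9.48 to 10.8 FPKM) than in all 6 WT libraries (5.21 to 6.15). The rise was 0.81 ± 0.11 (SE, limma, adjusted p = 0.000332) with the control virus and 0.68 ± 0.11 (SE, adjusted p = 0.00114) with Cre. *Trp53* was higher in every floxed library (42.1 to 59.2 FPKM) than in every WT library (29.5 to 41.6). Its rise passed with Cre (0.54 ± 0.15, SE, limma, adjusted p = 0.0222) and the difference with the control virus was 0.35 (adjusted p = 0.116). *Ppm1d* was likewise higher in every floxed library (8.65 to 11.5 FPKM) than in every WT library (5.45 to 7.73), and passed with Cre (0.58, limma, adjusted p = 0.00869) but not with the control virus (0.39, adjusted p = 0.0556). *Tnfrsf10b* was higher in Hoxa-del than in WT-Cre by 0.83 (limma, adjusted p = 0.0119), and the difference with the control virus was 0.43 (adjusted p = 0.152). It measured 2.87 to 4.90 FPKM in floxed and 1.21 to 2.42 in WT libraries. Between the viruses *Tnfrsf10b* changed by -0.42 with Cre in WT cells and by -0.02 in floxed cells. *Gadd45a* rose by 0.54 against WT-Cre (limma, adjusted p = 0.0404). Of the 21 alternative settings in which it was refitted, it stayed past the threshold in 7.

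*Mdm2*, *Zmat3* and *Ak1* passed with the control virus only, and whether the comparisons differ is the interaction above, in which none passed. *Mdm2* fell by 0.80 (limma, adjusted p = 0.0486) and stayed past the threshold in 9 of 21 alternatives, and with Cre its difference was -0.54 (adjusted p = 0.164). *Zmat3* fell by 1.14 (limma, adjusted p = 0.0151), with 10.2 to 10.8 FPKM in WT-GFP and 2.81 to 7.70 in Hoxa-flox, and with Cre its difference was -0.81 (adjusted p = 0.0658). *Ak1*, adenylate kinase, rose by 1.39 (limma, adjusted p = 0.0292), from 1.18 to 1.88 FPKM in WT-GFP to 2.67 to 7.84 in Hoxa-flox. Its high values were those of the first set. *Cdkn1a* overlapped between the leukemias, with changes of -0.26 and 0.03, as did *Ccng1* (-0.75 and -0.80). In the second set *Ccng1* measured 109, 46.7 and 89.5 FPKM, so that 1 of these 3 libraries lay well below the WT range of 81.3 to 87.3 FPKM.

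By role, 6 of 11 growth arrest genes were lower in Hoxa-flox against WT-GFP, with a median of -0.75, where 13.5% of all symbols were lower. In Hoxa-del against WT-Cre 5 of 11 were lower, against 14.2%, and *Gadd45a* was higher, with a median of -0.81. None of the 5 repair genes passed in either comparison, with *Xpc* at 0.47 (adjusted p = 0.151, limma) and *Polk* at -0.38 (adjusted p = 0.0682) with the control virus. Of 6 genes of cell death, *Dram1* was lower in both, and *Tnfrsf10b* was higher in Hoxa-del against WT-Cre. Thus 1 and 2 of 6 passed, against 26.8% and 27.2% of all symbols. The share of genes that were lower depended on the set: with floxed libraries of the first set only, 20 of the 35 genes were lower and 7 higher in Hoxa-flox against WT-GFP, and with the second set only 9 were lower and 4 higher, with a median of -0.04. All symbols depended on the set too: with the first set only 56.4% passed (28.9% lower and 27.5% higher), and with the second 42.7% (21.5% and 21.1%). In Hoxa-del against WT-Cre with the first set only, 26 of the 35 genes passed, against 57.6% of all symbols. With array weights 29 of the 35 passed in Hoxa-flox against WT-GFP, against 69.8%.

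The calls of *Trp53inp1*, *Gdf15*, *Sesn1*, *Plk3*, *Dram1* and *Psrc1* held in both comparisons in all 21 alternatives, leaving out each library in turn among them. In Hoxa-flox against WT-GFP, *Btg2* was lost without any 1 of the WT-GFP libraries (highest adjusted p = 0.0531, limma) and *Mdm4* without WT-GFP replicate 2 or 3 (0.0649). With the second set of floxed libraries only, which leaves Hoxa-flox replicate 3 alone in its group, *Plk2*, *Mdm2*, *Zmat3*, *Ptp4a3* and *Ak1* were lost. *Zmat3* was lost without Hoxa-flox replicate 1 or 2 (highest adjusted p over its alternatives 0.185, limma). *Ptp4a3* (0.0755) and *Ak1* (0.153) were lost without any 1 WT-GFP library and without Hoxa-flox replicate 1 or 2. *Mdm2* was lost without 9 of the 12 libraries, the exceptions being Hoxa-flox replicate 3 and Hoxa-del replicates 2 and 3. Processing mattered too: *Mdm2* and *Ak1* were lost without the filter on low values, and *Mdm2* with equal upper quartiles. In Hoxa-del against WT-Cre, *Ppm1d* (adjusted p = 0.0646, limma) and *Ptp4a3* (0.0627) were lost in a fit of only the groups compared, as were *Trp53*, *Mdm4* and *Gadd45a*. *Tnfrsf10b* was lost without WT-Cre replicate 1 (adjusted p = 0.0512, limma) and *Trp53* without WT-Cre replicate 3 or Hoxa-del replicate 3 (0.0965). *Mdm4* was lost without any 1 WT-Cre library or Hoxa-del replicate 3 (0.0893). *Btg2* was lost without any 1 WT library or without Hoxa-del replicate 1 or 3, with a pseudocount of 0.1 and without the filter (0.146). Values in brackets are the highest adjusted p (limma) over all alternatives of a call. *Gadd45a* was lost without any 1 WT library, Hoxa-flox replicate 1 or 2, or Hoxa-del replicate 1 or 3. It was also lost with equal upper quartiles and without the filter.

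**Figure D4:**
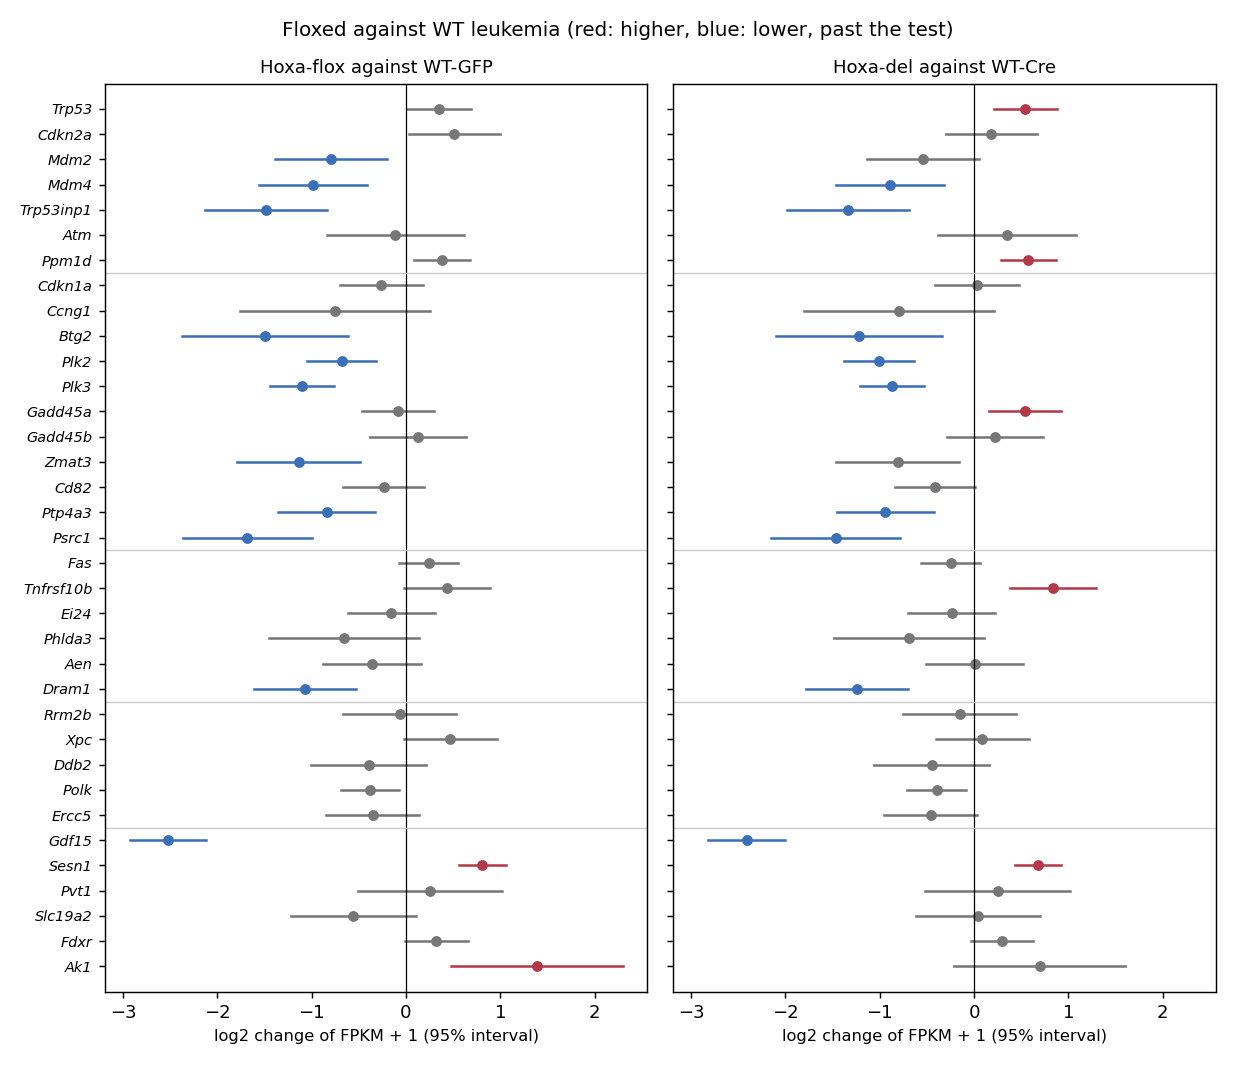
Difference between floxed and WT leukemia (log2 of FPKM + 1, horizontal axes) of the 35 genes with the control virus (left) and with Cre (right), in the same order; points are limma estimates from 3 against 3 libraries, bars 95% intervals, red and blue genes passed higher and lower. *Gdf15*, which passed the minimum level through the WT libraries only, is the lowest on both sides (-2.52 and -2.41), and 10 genes are coloured alike on both.

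Other genes of the pathway, which are not among the 35, were counted in the same way. None of 26 other p53 targets, 18 damage signalling genes, 22 genes of double-strand break repair and 22 cofactors and modifiers of p53 passed in WT or in floxed cells (limma). At an unadjusted p under 0.05 there was none of these in WT cells and there were 1, 0, 1 and 2 in floxed cells. Their median changes in WT cells were -0.09, -0.11, -0.01 and -0.06, against -0.03 for all symbols. In floxed cells they were -0.07, 0.17, 0.29 and -0.05, against -0.06 for all symbols. Within the first set of floxed libraries the medians were 0.07, 0.03, -0.03 and -0.09, and within the second -0.21, -0.03, -0.05 and -0.04. The most abundant other targets were *Gpx1*, a glutathione peroxidase, and *Rps27l*, a ribosomal protein variant induced by p53. *Gpx1* changed by -0.16 ± 0.30 (SE) in WT and -0.52 ± 0.30 (SE) in floxed cells, and *Rps27l* by -0.07 and -0.04 ± 0.28 (SE). *Topbp1*, an activator of the kinase Atr, measured 28.7 to 32.6 FPKM in WT cells and 16.3 to 63.6 in floxed cells. Its high values were the 3 libraries of the second set. Of the damage signalling genes 14 of 18, and of the repair genes 12 of 22, were higher in all libraries of the second set, against 23.1% of all symbols, and cell cycle genes were also higher in that set. In WT cells 18 of 26 cell cycle genes were lower in all Cre libraries than in all control libraries, against 16.3% of all symbols, with a median of -0.24 and none past the test (limma), and their sums were 681 to 721 FPKM without and 596 to 599.4 with Cre. In floxed cells 25 of the 26 had a positive change, with a median of 0.46 and overlapping groups. The difference from WT cells was positive in all 26 (median 0.65), again with none past the test (limma). Hoxa-del holds more libraries of the second set than Hoxa-flox, so these changes and the sets are mixed. Within the first set the median change of the cell cycle genes was 0.23 and within the second -0.28. In both sets 3 of 26 were higher and 3 lower with Cre, against 20.6% and 26.9% of all symbols. The part of the cell cycle changes in the lower *Cdkn1a* or *Trp53* values of WT-Cre was not tested.

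Between the leukemias, 4 of 26 other p53 targets passed in Hoxa-flox against WT-GFP (1 higher, 3 lower) and 4 in Hoxa-del against WT-Cre (1 higher, 3 lower), both below the share of all symbols (26.8% and 27.2%). The counts of the 3 other lists below are also near or below that share, and the genes named from them are described as single genes. *Ccnd1*, the cyclin D1 gene, measured 7.89 to 11.3 FPKM in WT and 0.339 to 1.33 in floxed libraries, and fell by 2.64 (limma, adjusted p = 4.82e-06) and 2.97 (adjusted p = 1.93e-06). The means of its floxed groups were under 1 FPKM (0.730 and 0.443), so *Ccnd1* passed the minimum through the WT libraries. *Tob1*, an antiproliferative relative of *Btg2*, fell by 1.41 (limma, adjusted p = 2.68e-05) and 1.28 (adjusted p = 5.97e-05). *Casp1*, the inflammatory caspase, fell by 0.81 and 0.91 (limma, adjusted p = 0.00192 and 0.000923). Of 18 damage signalling genes, 2 rose and 3 fell with the control virus, and 3 rose and 1 fell with Cre. *Chek2*, the kinase that links Atm to p53, measured 17.4 to 21.3 FPKM in WT and 10.1 to 11.8 in floxed libraries, and fell by 0.71 (limma, adjusted p = 0.000991) and 0.82 (adjusted p = 0.000403). *Mre11a*, of the complex that senses broken ends, rose by 0.84 and 1.24 (limma, adjusted p = 0.0280 and 0.00370). Of 22 repair genes, 2 rose and 2 fell with the control virus, and 1 rose and 2 fell with Cre. The end-joining genes *Dclre1c* (Artemis) and *Lig4* fell in both, by 0.88 and 0.62 with the control virus (limma, adjusted p = 0.00173 and 0.0142) and by 0.65 and 0.77 with Cre (adjusted p = 0.01003 and 0.00451). *Lig4* also passed the minimum through the WT libraries, with means of 0.836 and 0.749 FPKM in the floxed groups. *Parp1* rose in both, by 0.73 and 0.86 (limma, adjusted p = 0.0349 and 0.0162). Of 22 cofactors, 3 rose and 2 fell with the control virus, and 4 rose and 3 fell with Cre. The ribosomal protein genes *Rpl11* and *Rpl23*, whose products bind Mdm2, rose in both, by 0.94 and 0.69 with the control virus (limma, adjusted p = 0.00117 and 0.00422) and by 0.67 and 0.94 with Cre (adjusted p = 0.00917 and 0.000614). Ribosomal protein genes have near-identical copies, so their levels are uncertain.

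Some rows may hold more than 1 product. *Pvt1*, a noncoding RNA gene, had 3 rows, of which the highest was used. In GENCODE M21 *Cdkn1a*, *Mdm4*, *Plk3*, *Gadd45a*, *Ddb2*, *Ei24*, *Rrm2b*, *Polk*, *Cd82* and *Pvt1* overlap a gene on the other strand. *Fas*, *Sesn1*, *Rrm2b*, *Cd82*, *Ptp4a3* and *Pvt1* overlap a gene on the same strand, which strand cannot separate, so their levels are uncertain. The libraries were stranded, and whether counting used the strand is not given in the sources used here. *Eda2r* and *Perp*, death genes of the list, had means of 0.0835 and 0.0133 FPKM over the 12 libraries and were not tested.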

How the data were processed

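Total RNA of 12 samples was isolated with TRIzol and made into stranded libraries depleted of ribosomal RNA, sequenced on an Illumina NextSeq, per the labels' protocols. One table with a value per gene symbol and library was used, of 28042 rows, and 0 columns were without a sample. Per the submitters' processing notes, the builds were mm10 and GRCm38 and the tools Cuffdiff 2.2.2.20150701, Cufflinks and STAR, whose roles those notes do not give here. Neither header nor labels name the unit, and the deposited values were taken as FPKM, the unit of Cufflinks, as the authors left them. They summed to 548383 to 1211907 per library, and the 10 highest rows held 27.1% to 52.4% of each library, so a few rows weigh on every value. Upper quartiles were 9.38 to 9.91. How libraries were scaled, and on which annotation, is not given in the sources used here. Of 25263 symbols, 1855 had several rows, of which the one with the highest mean was kept.

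FPKM are not counts, so no count model was used. Relative depth came from rows with a mean under 0.3 FPKM: 43.4% to 51.1% of their ratios between libraries lay within 0.02 (log2) of ratios of small whole numbers, against 3.41% to 6.01% beside those steps. All 4 groups were fitted at once with limma 3.58.1 (R 4.3.3, limma-trend) on log2(FPKM + 1), which understates changes of low genes, over the 13169 symbols whose mean reached 1 FPKM. P-values were adjusted after Benjamini and Hochberg over all of them, with a threshold of 0.05. The script was tested on simulated data. Tables used Python 3.11.15, pandas 2.3.3 and numpy 2.4.6, and figures matplotlib 3.10.9. Levels are per library or a range, changes have a standard error (SE) or a 95% interval. The spread was pooled over the groups, with a median SD on the log2 scale of 0.116 in the tightest (WT-GFP) and 0.357 in the widest (Hoxa-del). The members, the gene lists and the tests were chosen with earlier results of these data known. Every one of the 35 genes may be named. From each other list up to 4 genes past the threshold with the smallest adjusted p, or otherwise the 2 with the highest mean, could be named. As alternatives, each library was left out in turn, and fits were made with array weights, with equal upper quartiles, with a pseudocount of 0.1, without the filter, with all rows of repeated symbols, with the library set or the replicate number as a term, and on the compared groups alone. Fits with 1 set of floxed libraries were added after the data were seen. Coordinates are those of GENCODE M21 (GRCm38), matched by symbol, and promoters those of RefSeq (GRCm38.p6).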

Additional observations from a re-analysis of the deposited data

Results flagged for a closer look

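*Gadd45a*, a stress sensor of the p53 pathway, was singled out because its libraries moved opposite ways with Cre in the 2 leukemias. In WT cells all 3 Cre libraries (22.2 to 23.5 FPKM) were below all 3 control libraries (24.0 to 25.3), as in 16.3% of all symbols. In floxed cells all 3 Cre libraries (24.5 to 44.2 FPKM) were above all 3 control libraries (22.2 to 23.5), as in 2.25% of all symbols. The share of symbols that move opposite ways in this manner is not given here. The difference of the changes was 0.62 ± 0.25 on the log2 scale (SE, 3 libraries a group), and it did not pass over all genes (limma, adjusted p = 0.9997). With array weights, which set Hoxa-flox replicate 3 and Hoxa-del replicate 2 nearly aside, it was 0.77 (limma, adjusted p = 0.00565), in a fit in which 26.2% of all symbols passed. Within the first set of floxed libraries the change with Cre was 0.07 and within the second 0.78.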

How the results depend on the processing

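With Cre in WT cells, 0 of the 35 genes passed under every alternative run, and the median change of -0.05 was -0.0007 with equal upper quartiles and -0.0859 to -0.0187 with 1 library left out. With Cre in floxed cells, where 0 passed, 17 passed with array weights (39.3% of all symbols) and 0 to 4 with 1 library left out. With array weights *Ccng1* turned to 0.79 and *Btg2* to -0.61. For the difference of these changes, where 0 passed, 13 passed with array weights (26.2% of all symbols), and its median of -0.01 became 0.19 with array weights and ran from -0.011 to 0.20 with 1 library left out. Of Hoxa-flox against WT-GFP (13 genes), 29 passed with array weights (69.8% of all symbols), 27 with floxed libraries of the first set only (56.4%) and 8 to 17 with 1 library left out (18.3% to 35.3%). The median of -0.35 was -0.0425 with the second set only, and *Atm* turned to 0.67. Of Hoxa-del against WT-Cre (14 genes), 9 passed in a fit of only the groups compared (18.2% of all symbols) and 26 with floxed libraries of the first set only (57.6%), in which *Aen* turned to -0.45. The cause of these shifts was not tested, except that array weights set Hoxa-flox replicate 3 and Hoxa-del replicate 2 nearly aside.

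Replicate numbers are shared by the groups, and whether they pair the libraries cannot be told from these values. Deviations of same-numbered libraries correlated at 0.011, -0.00535 and 0.0897 in WT cells and at -0.301, 0.6 and 0.721 in floxed cells. Not every library correlated best with its own number, and in floxed cells the correlations were positive within a set and negative between the sets. With the replicate block, 0, 0, 0, 13 and 15 of the 35 genes passed in the order of the comparisons above, and 0, 3, 1, 3593 and 3635 of all symbols. With 3 libraries a group and no counts, a change within the reach of its own 95% interval (median 0.51 to either side) was not detectable. The intervals are not adjusted over genes, so a change beyond that reach could fail the test too. In floxed cells *Gadd45a* changed by 0.52 (95% interval 0.14 to 0.90) and did not pass (limma, adjusted p = 0.729). Steady levels of RNA do not show the p53 protein or DNA breaks.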
